A study of Mus musculus with 12 samples.

Results

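Themis, its relative Themis2 and 4 proteins known to bind them or to work beside them (Grb2, Ptpn6, Ptpn11 and Vav1) were followed as transcripts in sorted intestinal lymphocytes of mice given CD4+ or CD8αβ+ T cells. The 6 genes were taken as a named group of proteins that bind each other, not by a cut on a measured value, but with earlier results of these data known. They were 6 of 25899 gene symbols in the count table. All 6 were among the 12622 genes with enough reads for a test.

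Themis is an adaptor protein of the T lineage that is needed for thymocytes to pass positive selection. It is carried to the T cell receptor signalling complex by Grb2, an adaptor with SH2 and SH3 domains that also links receptors to Ras, and it binds the tyrosine phosphatases SHP-1 (gene Ptpn6) and SHP-2 (gene Ptpn11). Vav1 is a guanine nucleotide exchange factor that is phosphorylated when the receptor is engaged. Themis2 has the same type of CABIT domains as Themis and is known from B cells and myeloid cells, where it too associates with Grb2 and Vav1. Intraepithelial lymphocytes (IEL) lie between the epithelial cells of the gut, and those with the CD8αα homodimer in place of CD4 or CD8αβ are common in the small intestine.

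Bulk RNA sequencing was done on IEL of the small intestine of Rag2–/– mice, hosts without lymphocytes of the T and B lineages, 1 week after a single intravenous transfer of T cells from lymph nodes of Themis WT donors. Hosts of conventional CD4+ T cells gave 2 sorted populations, called CD4 IEL (TCRβ CD4+) and CD8αα from CD4 (TCRβ CD8αα+). Hosts of CD8αβ+ T cells gave the populations called CD8αβ IEL (TCRβ CD8αβ+) and CD8αα from CD8αβ (again TCRβ CD8αα+). All 4 groups thus shared the Rag2-deficient host and the Themis WT donor genotype, no group lacked Themis, and each had 3 libraries. The ages of the mice are not given in the labels, nor whether each library is its own animal. The p-values therefore cover only the spread between libraries, which may be technical. CD4 IEL and CD8αβ IEL are called companion groups below, because each came from the same kind of transfer as 1 of the CD8αα groups.

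Libraries held 5620257 to 11070734 counts, and levels are given as CPM (counts scaled to the library total with TMM factors). Several libraries stood apart from their labels. In 4 of the 6 CD8αα libraries (replicates 1 and 2 of CD8αα from CD4, replicates 1 and 3 of CD8αα from CD8αβ) Xist stood at 373 to 645 CPM and 4 Y-linked genes together at 0.342 to 1.03 CPM, whereas in the other 8 libraries Xist was at most 36.4 CPM. The CD8αα libraries carried Cd8a, but of the receptor subunit genes Cd3e stood at 8.24 ± 4.81 CPM (SD, n = 3) after the CD4 transfer and 18.4 ± 4.03 CPM after the CD8αβ transfer, against 557 ± 71.4 CPM in CD4 IEL and 494 ± 85.8 CPM in CD8αβ IEL. Cd3g went the other way, with 2128 ± 224 and 3549 ± 243 CPM in the CD8αα groups against 449 ± 21.9 and 945 ± 51.5 CPM. Cd5, Cd28, Bcl11b and Tcf7 were each at most 23.1 CPM in any CD8αα library. The 9 T cell markers summed to 3425 to 3869 CPM in CD4 IEL, to 1970 to 2449 CPM in the CD8αα libraries of the same transfer, to 3773 to 4301 CPM in CD8αβ IEL and to 3401 to 3878 CPM in its CD8αα counterpart, with Cd3g as most of the sum in the CD8αα groups. These values put the T cell label and the donor origin of the CD8αα libraries in doubt. Neither was tested, and the group names are used as labelled, without meaning that 1 population turned into another. Where a member's call ended when the 4 Xist-positive libraries were left out, that is given beside the call. That fit keeps 1 library in each CD8αα group, which is assumed to vary like the other groups.

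The DNA just upstream of 4 of the genes is shown first, because Themis and Themis2 moved in opposite directions and Ptpn6 and Ptpn11 encode the phosphatase pair. Each line holds the 250 bases before the RefSeq start on the gene's own strand, 5′ to 3′, from build GRCm38.p6, with CG dinucleotides in capitals. The windows are chr10:28668110-28668359 on the plus strand for Themis, chr4:132796365-132796614 on the minus strand for Themis2, chr6:124738710-124738959 on the minus strand for Ptpn6 and chr5:121191398-121191647 on the minus strand for Ptpn11.
Themis: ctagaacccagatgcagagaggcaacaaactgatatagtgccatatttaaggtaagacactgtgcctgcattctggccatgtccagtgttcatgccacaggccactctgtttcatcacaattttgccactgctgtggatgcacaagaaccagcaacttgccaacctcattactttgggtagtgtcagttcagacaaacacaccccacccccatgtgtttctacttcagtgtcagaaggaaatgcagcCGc
Themis2: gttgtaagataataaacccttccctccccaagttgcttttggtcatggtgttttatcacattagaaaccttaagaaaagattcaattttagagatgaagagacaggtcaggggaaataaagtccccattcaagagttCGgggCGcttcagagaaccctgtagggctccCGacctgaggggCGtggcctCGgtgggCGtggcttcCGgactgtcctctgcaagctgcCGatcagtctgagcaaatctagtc
Ptpn6: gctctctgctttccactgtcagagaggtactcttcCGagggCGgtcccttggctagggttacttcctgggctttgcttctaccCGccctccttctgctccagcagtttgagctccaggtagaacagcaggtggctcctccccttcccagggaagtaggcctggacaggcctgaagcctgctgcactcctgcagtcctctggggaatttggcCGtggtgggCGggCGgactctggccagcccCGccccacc
Ptpn11: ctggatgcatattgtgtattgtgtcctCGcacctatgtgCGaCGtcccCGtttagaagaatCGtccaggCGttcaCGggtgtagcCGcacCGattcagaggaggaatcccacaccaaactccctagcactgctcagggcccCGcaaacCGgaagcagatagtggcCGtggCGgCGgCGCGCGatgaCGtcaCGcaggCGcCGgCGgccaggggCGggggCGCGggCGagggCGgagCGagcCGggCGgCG

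The Themis window holds 1 CG dinucleotide, and 8.26% of 27025 mouse windows of this length hold fewer. Themis2 has 8 (56.6% of windows hold fewer), Ptpn6 7 (53.5%) and Ptpn11 31 (95.1%), so the pair of phosphatase genes lies on promoters of unlike composition. Both strands of the windows of all 6 genes were searched for the RUNX motif TGTGGT, the ETS motif GGAAGT, the GATA motif AGATAA, the TCF1 motif CTTTGA, the E-box CANNTG and the AP-1 motif TGANTCA, and none of these contains another. The Themis window has 2 E-boxes, a motif found in 66% of all windows. The Themis2 window has 1 AGATAA, found in 10.3% of windows, and the Ptpn6 window has 2 matches of GGAAGT, found in 20% of windows, beside 1 E-box. Vav1 has 1 GGAAGT and 2 E-boxes, Grb2 has 1 E-box, and the letters of no searched motif occur in the Ptpn11 window. These matches describe the letters only. Themis and Grb2 each had 2 windows, of which the first was used. The Grb2 window (chr11:115699929-115700178, minus strand) lies inside the annotated gene, which runs to 115708597.

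Themis was abundant in both companion groups and low in both CD8αα groups. In CD4 IEL the 3 libraries stood at 410.2, 331 and 321 CPM, and in CD8αα from CD4 at 7.86, 7.22 and 6.87 CPM. In CD8αβ IEL they stood at 243, 176 and 242 CPM, and in CD8αα from CD8αβ at 12.2, 7.65 and 8.27 CPM. Every companion library was thus far above every CD8αα library, and the CD8αα values rest on 44 to 131 reads per library. Themis was 48.4-fold lower in CD8αα from CD4 than in CD4 IEL (log2 fold change -5.60 ± 0.22 SE, edgeR adjusted p = 2.69e-09), and 212 of the 12622 genes tested had a lower log2 fold change. It was 23.3-fold lower in CD8αα from CD8αβ than in CD8αβ IEL (-4.54 ± 0.21, edgeR adjusted p = 5.36e-09), with 241 genes lower still. Without the Xist-positive libraries the log2 fold changes were -5.68 and -4.84. Between the companion groups Themis was 1.61-fold higher in CD4 IEL than in CD8αβ IEL (log2 0.69 ± 0.18, edgeR adjusted p = 0.0113), and no library overlapped, as for 41.5% of all genes tested. That call ended without replicate 1 of CD4 IEL, the highest library (adjusted p = 0.0503).

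The 2 CD8αα groups did not pass the test for Themis (log2 -0.37, 95% interval -0.82 to 0.09, edgeR adjusted p = 0.380), and their libraries overlapped. In bulk samples fewer cells that express a gene and less RNA of it per cell cannot be told apart, and this holds for every level given here. Themis lies on chromosome 10 (28668360 to 28883818, mm10, plus strand). It shares 153 bases of its exons, 1.31% of them, with a pseudogene on the opposite strand, and reads there cannot be assigned where the handling of strand is not given.

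Themis2 was arranged in the opposite order, highest in both CD8αα groups, intermediate in CD8αβ IEL and lowest in CD4 IEL. The libraries of CD4 IEL stood at 38.9, 35.4 and 35.8 CPM and those of CD8αα from CD4 at 119.5, 141 and 112 CPM. CD8αβ IEL had 59.8, 73.9 and 75.1 CPM, and CD8αα from CD8αβ had 129, 99.9 and 126.5 CPM. In both transfers each CD8αα library was above each companion library. Themis2 rose 3.39-fold in CD8αα from CD4 over CD4 IEL (log2 1.76 ± 0.16 SE, edgeR adjusted p = 1.87e-06). The rise over CD8αβ IEL in CD8αα from CD8αβ was 1.70-fold (log2 0.77 ± 0.15, edgeR adjusted p = 0.00155). That second call ended without the Xist-positive libraries, where the log2 fold change was 0.53 (adjusted p = 0.220), while the first held at 1.61 (adjusted p = 0.00216). CD4 IEL was 1.89-fold below CD8αβ IEL (log2 -0.92 ± 0.16, edgeR adjusted p = 8.64e-04), and the CD8αα groups overlapped (log2 0.07, interval -0.26 to 0.40, adjusted p = 0.863).

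Themis2 is known from B cells and myeloid cells, so markers of those cells are given beside it. Of 7 B cell markers, Pax5 was at 0 in every library, and Cd79b was most of the summed level in the CD8αα libraries (49.3 ± 5.07 and 69.9 ± 3.67 CPM, SD, n = 3). In CD8αβ IEL Cd79b stood at 14.1 ± 5.58 CPM beside Blnk at 12.3 ± 14.4 CPM. That sum was 4.44 to 10.8 CPM in CD4 IEL against 49.2 to 61.2 CPM in the CD8αα libraries of that transfer, and 17.5 to 39.4 CPM in CD8αβ IEL against 69.6 to 79.5 CPM in its CD8αα counterpart. The 12 myeloid markers summed to 83.6 to 181, 739 to 996, 185 to 302.5 and 402 to 506 CPM in the same order of groups. Itgax, which intestinal lymphocytes can also express, made up most of that sum (845 ± 122 CPM in CD8αα from CD4), whereas the means of Lyz2 and Csf1r in the CD8αα groups were below those of their companion groups. The 8 natural killer and innate lymphoid markers summed to 850 to 1004, 1914 to 2393, 386 to 534 and 2029 to 3542 CPM. All 3 sums were higher in each CD8αα group than in its companion group, as Themis2 was. The B cell and myeloid sums were also, like Themis2, lowest in CD4 IEL and intermediate in CD8αβ IEL. Unlike Themis2, both sums differed between the CD8αα groups without overlap. The natural killer sum was instead higher in CD4 IEL than in CD8αβ IEL. The part of such cells in the result was not tested. Epithelial markers (10 genes) summed to 81.9 to 184 CPM in CD4 IEL and 452 to 545 CPM in CD8αα from CD4, and spanned 254 to 626 CPM for CD8αβ IEL against 564 to 881 CPM for its CD8αα counterpart. In the CD4 transfer the mean of every listed gene was higher in the CD8αα group. In the CD8αβ transfer Epcam (34.2 to 207 CPM), Cdh1 (85.6 to 277 CPM), Krt18 and Muc2 were higher there. The means of Vil1, Krt8, Krt20, Fabp1, Fabp2 and Apoa1 were lower. Mast cell markers (5 genes, Fcer1a at 0 in every library) summed to between 69.6 and 178 CPM over all groups.

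**Figure D1:**
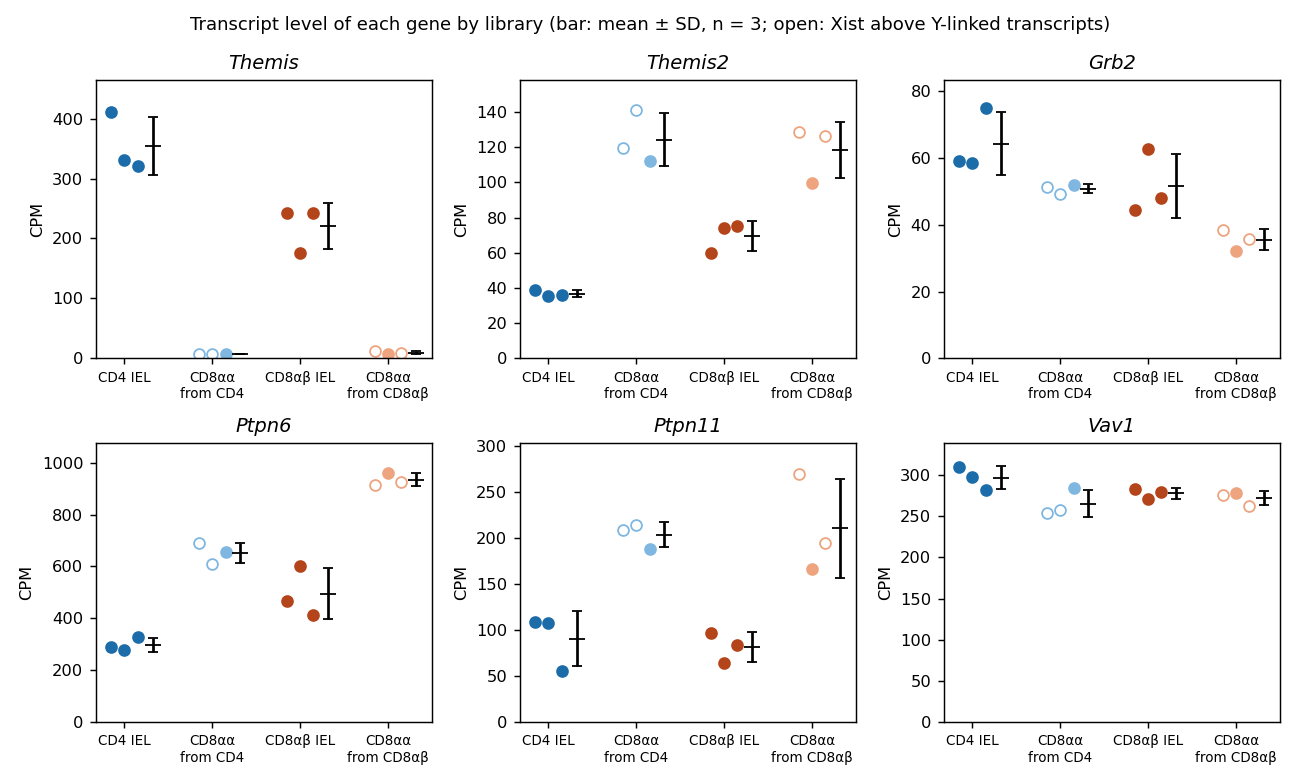
Level of each of the 6 genes in every library, in CPM on a linear axis from 0, with the mean and SD of 3 libraries beside each group; open points are the 4 CD8αα libraries with Xist above Y-linked transcripts. Themis is at 176 to 410.2 CPM in the companion libraries and at 6.87 to 12.2 CPM in the CD8αα libraries, while Vav1 stays between 254 and 310.4 CPM throughout.

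The ratio within the Themis pair changed sides between the cell types. Counted per kilobase of the longest coding transcript (5082 bases for Themis, 3079 for Themis2), the ratio of Themis to Themis2 was 5.83 ± 0.494 (SD, n = 3) in CD4 IEL and 1.95 ± 0.510 in CD8αβ IEL. In the CD8αα groups it was 0.0359 ± 0.00454 (CD4 transfer) and 0.0479 ± 0.00908 (CD8αβ transfer), so that Themis2 exceeded Themis 25.1- to 32.3-fold in the former and 17.4- to 25.2-fold in the latter. All 6 companion libraries were above 1 and all 6 CD8αα libraries below it. The value in CD8αβ IEL depended on the length used: with merged exons of all transcripts, a measure chosen after the data had been seen, it was 0.627 to 1.07 in the 3 libraries, and the other groups kept their side of 1.

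**Figure D2:**
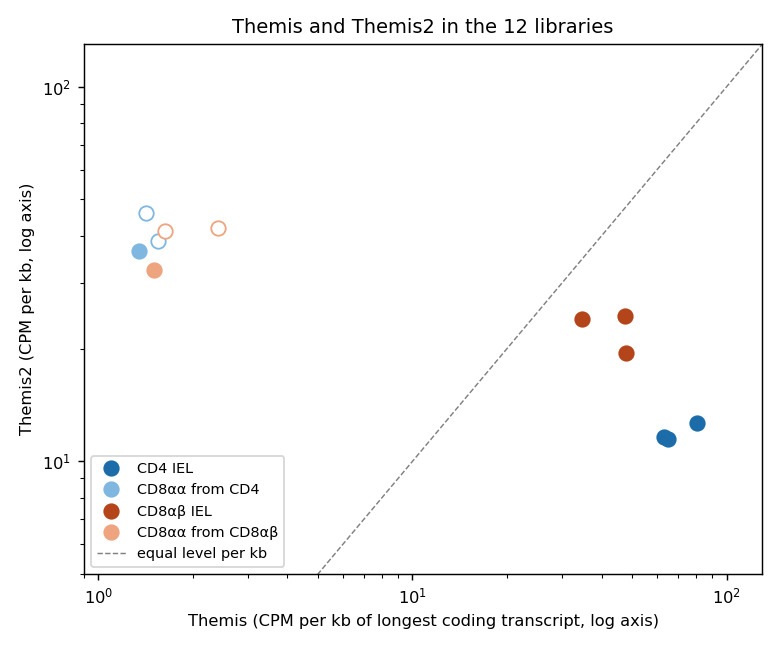
Themis (horizontal) against Themis2 (vertical) in the 12 libraries, both in CPM per kilobase of the longest coding transcript on log axes, with a dashed line of equal level; open points are the 4 Xist-positive libraries. The companion libraries lie to the right of the line and the CD8αα libraries to its left, at Themis levels of 1.35 to 2.41.

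The adaptor gene Grb2 was lower in CD8αα from CD8αβ than in CD8αβ IEL and did not pass the test in the CD4 transfer. Its libraries stood at 59.2, 58.5 and 75.2 CPM in CD4 IEL and at 51.2, 49.4 and 52.0 CPM in CD8αα from CD4. In CD8αβ IEL they stood at 44.5, 62.7 and 48.1 CPM, and in CD8αα from CD8αβ at 38.5, 32.3 and 35.7 CPM. The CD8αα libraries were below their companions without overlap in both transfers. Only the second difference passed the test (log2 -0.54 ± 0.17 SE, 1.46-fold lower, edgeR adjusted p = 0.0267). For the CD4 transfer the log2 difference was -0.34 with a 95% interval of -0.70 to 0.03 (edgeR adjusted p = 0.163). The call in the CD8αβ transfer was lost in 5 of 19 alternative fits. Those were the fits without replicate 2 of CD8αβ IEL (adjusted p = 0.124), without replicate 2 or 3 of CD8αα from CD8αβ (0.0940 and 0.0709), with only the compared groups (0.0636) and without the Xist-positive libraries (0.220). Ordered by mean, the groups ran from CD4 IEL over CD8αβ IEL and CD8αα from CD4 to CD8αα from CD8αβ. No neighbours in that order passed the test, but its ends did (log2 -0.85 ± 0.17, edgeR adjusted p = 0.00138), in a comparison that called 38.7% of all genes. The call between the ends was lost without the Xist-positive libraries.

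Vav1, the exchange factor, passed the test in none of the 4 comparisons described here (edgeR adjusted p of 0.267 or more, and no unadjusted p under 0.05). The libraries stood at 310.4, 298 and 283 CPM in CD4 IEL, at 254, 258 and 284 CPM in CD8αα from CD4. They stood at 284, 271 and 279.7 CPM in CD8αβ IEL and at 276, 279 and 262 CPM in CD8αα from CD8αβ. Each CD8αα group overlapped its companion, while CD8αα from CD8αβ lay below CD4 IEL without overlap (log2 -0.12, edgeR adjusted p = 0.360). Its log2 fold change was -0.16 in the CD4 transfer (95% interval -0.38 to 0.06, edgeR adjusted p = 0.267) and -0.03 in the CD8αβ transfer (interval -0.25 to 0.19, adjusted p = 0.865). The test of any difference among the 4 groups gave an edgeR adjusted p of 0.522 for Vav1 and 0.00643 or less for each of the other 5 genes, against 52.1% of all genes tested that passed it. Vav1 has the relatives Vav2 and Vav3, and both were called. Vav3 met the rule for naming list genes in the CD8αβ transfer, whereas Vav2 was named after its values were seen. Vav2 was low, at 0.842 CPM in CD8αα from CD8αβ against 10.7 CPM in CD8αβ IEL, so the size of that fall is uncertain. Vav2 fell in CD8αα from CD8αβ (log2 -3.66 ± 0.79, edgeR adjusted p = 0.00275) and in CD8αα from CD4 (-2.07 ± 0.68, adjusted p = 0.0354), whereas Vav3 rose (2.35 ± 0.27, adjusted p = 1.73e-05, and 0.95 ± 0.26, adjusted p = 0.0124).

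Both phosphatase genes were higher in the CD8αα groups. Ptpn6, which encodes SHP-1, stood at 289, 276 and 326 CPM in CD4 IEL and at 689, 609 and 655 CPM in CD8αα from CD4. In CD8αβ IEL it stood at 467, 603 and 411 CPM, and in CD8αα from CD8αβ at 915, 962 and 925 CPM. No CD8αα library reached down to its companions, and CD8αβ IEL varied most. Ptpn6 rose 2.19-fold over CD4 IEL (log2 1.13 ± 0.14 SE, edgeR adjusted p = 2.85e-05) and 1.89-fold over CD8αβ IEL (0.92 ± 0.14, adjusted p = 1.41e-04). Both calls held in all 19 alternative fits. Of the 6 genes Ptpn6 alone gave 4 levels in which all neighbours passed the test, in the order CD8αα from CD8αβ, CD8αα from CD4, CD8αβ IEL and CD4 IEL. The steps between them were a log2 difference of -0.52 between the CD8αα groups (edgeR adjusted p = 0.0448), of 0.40 from CD8αβ IEL to CD8αα from CD4 (adjusted p = 0.0309, in a comparison that called 39.7% of all genes) and of -0.73 between the companion groups (adjusted p = 0.00156). The first step was lost in 13 of 19 alternative fits. Among them were the fit without the Xist-positive libraries and each that left out any 1 CD8αα library. The second was lost in 7, among them those with only the compared groups and without the Xist-positive libraries. The others left out replicate 1 of CD4 IEL, replicate 1 or 3 of CD8αα from CD4, or replicate 1 or 3 of CD8αβ IEL. Ptpn6 shares 195 exon bases, 6.96% of them, with an antisense gene, where reads cannot be assigned without strand.

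Ptpn11, which encodes SHP-2 and is expressed in most tissues, stood at 108, 107 and 55.7 CPM in CD4 IEL and at 208.5, 214 and 188 CPM in CD8αα from CD4. In CD8αβ IEL the libraries stood at 96.1, 64.1 and 84.0 CPM, and in CD8αα from CD8αβ at 269.96, 167 and 194 CPM. The CD8αα libraries were all above the companion libraries, with 1 low CD4 IEL library (replicate 3) and 1 high CD8αα library (replicate 1 from CD8αβ). The gene rose 2.25-fold in the CD4 transfer (log2 1.17 ± 0.24 SE, edgeR adjusted p = 0.00249) and 2.59-fold in the CD8αβ transfer (1.37 ± 0.25, adjusted p = 6.67e-04). Without the Xist-positive libraries neither passed the test, at log2 1.05 (adjusted p = 0.0986) and 1.04 (adjusted p = 0.101). Neither the CD8αα groups (log2 -0.05, interval -0.56 to 0.47, adjusted p = 0.952) nor the companion groups (0.15, interval -0.37 to 0.67, adjusted p = 0.670) differed by more than the spread between libraries. Per kilobase Ptpn6 exceeded Ptpn11 in every library, 6.26- to 14.2-fold in CD4 IEL and 6.91- to 8.46-fold in its CD8αα counterpart, 11.8- to 22.8-fold in CD8αβ IEL and 8.23- to 14.0-fold in its own.

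**Figure D3:**
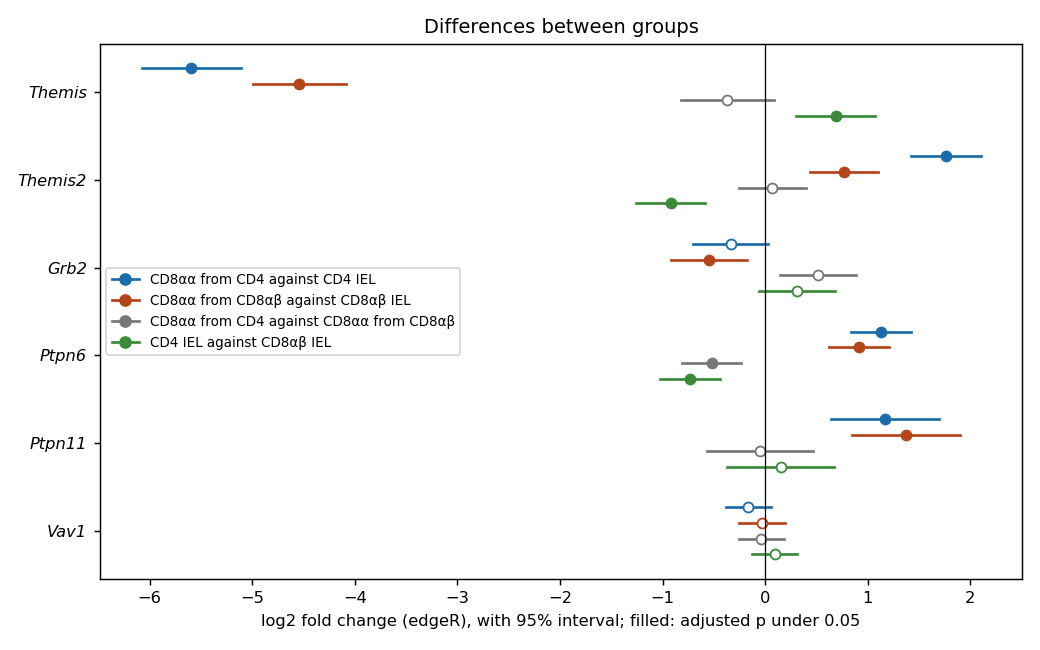
Log2 fold change of each gene (edgeR) with its 95% interval in 4 comparisons, filled where the adjusted p was under 0.05. Themis lies at -5.60 and -4.54 in the CD8αα groups against their companions, Themis2, Ptpn6 and Ptpn11 lie above 0, and the intervals of Vav1 include 0 throughout.

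Read together, 4 of the 6 genes were called in CD8αα from CD4 against CD4 IEL, 3 higher (Themis2, Ptpn6, Ptpn11) and Themis lower, where 28.5% of all genes tested were called (15% higher and 13.4% lower). In CD8αα from CD8αβ against CD8αβ IEL 5 were called, the same 3 higher and Themis and Grb2 lower, beside 31.2% of all genes (16.1% higher and 15.1% lower). Libraries did not overlap for 5 of the 6 genes in each of these comparisons, as for 45.7% and 43.8% of all genes. The median log2 fold change of the 6 genes was 0.49 and 0.37, against 0.02 and 0.00 over all genes tested. Without the Xist-positive libraries 3 and 2 genes remained past the threshold: Themis and Ptpn6 in both, and Themis2 in the first.

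Between the CD8αα groups Ptpn6 was the only gene of the 6 called, lower in CD8αα from CD4, where 4.33% of all genes tested were called and 2.47% were lower. Grb2 was 1.43-fold higher in CD8αα from CD4 with no overlap of libraries, as 28.9% of all genes had, but did not pass (log2 0.52 ± 0.17 SE, edgeR adjusted p = 0.113). Between CD4 IEL and CD8αβ IEL 3 of 6 genes were called, Themis higher and Themis2 and Ptpn6 lower in CD4 IEL, beside 29.1% of all genes (13% higher and 16.1% lower).

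Whether the difference between the CD8αα group and its companion differed between transfers was tested directly, as that in the CD4 transfer minus that in the CD8αβ transfer. For Themis2 that difference was 0.99 ± 0.22 SE on the log2 scale (edgeR adjusted p = 0.0277), where 2.75% of all genes passed, 1.29% in this direction. The Themis2 levels of the CD8αα groups were near each other, and CD4 IEL was below CD8αβ IEL. This call was lost in 7 of 18 alternative fits: without replicate 2 or 3 of CD4 IEL, replicate 2 of CD8αα from CD4, any 1 library of CD8αα from CD8αβ, or the Xist-positive libraries (adjusted p = 0.489 in the last). For Themis the difference was -1.05 ± 0.28 (edgeR adjusted p = 0.0605), and it passed with DESeq2 (adjusted p = 0.0200). Grb2 (0.21), Ptpn6 (0.21), Ptpn11 (-0.20) and Vav1 (-0.13) had edgeR adjusted p of 0.603 or more.

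Ranked per kilobase of the longest coding transcript within a library, Ptpn6 was highest and Vav1 next in all 12 libraries. Their levels were 129 ± 11.2 and 100.2 ± 4.71 CPM per kilobase (SD, n = 3) in CD4 IEL and 405 ± 10.6 and 91.9 ± 2.97 in CD8αα from CD8αβ. Themis followed them in all 6 companion libraries, at 69.7 ± 9.61 CPM per kilobase in CD4 IEL and 43.3 ± 7.55 in CD8αβ IEL, and was last in all 6 CD8αα libraries, at 1.44 ± 0.0986 and 1.85 ± 0.490. Grb2, the adaptor that carries Themis, was between 13.1 and 23.7 CPM per kilobase on average in every group. With these lengths the Grb2 mean was thus below that of Themis in the companion groups and above it in the CD8αα groups. The place of Themis depended on the length used, as its merged exons span 11682 bases against 2916 for Grb2. With merged exons the ratio of Themis to Themis2 was 0.627 to 1.07 in the CD8αβ IEL libraries. Themis thus did not follow Vav1 in all of them on that measure.

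Of 25 genes of proximal receptor signalling (kinases, adaptors, exchange factors and small GTPases, the 6 genes left out), 4 were called higher and 13 lower in the CD4 transfer, where 15% of all genes tested were higher and 13.4% lower. In the CD8αβ transfer 4 were higher and 12 lower, beside 16.1% and 15.1% of all genes. The counts of higher genes are thus near the background. The medians were -0.45 and -0.31 log2, against 0.02 and 0.00 for all genes. Lat, the membrane adaptor to which Grb2 binds, went from 871 to 45.3 CPM (log2 -4.26 ± 0.23 SE, edgeR adjusted p = 2.25e-08) and from 1085 to 37.7 CPM (-4.85 ± 0.23, adjusted p = 5.60e-09). Plcg1, the phospholipase bound to Lat, changed by -2.61 ± 0.29 and -2.56 ± 0.29, and Tespa1, a protein of thymocyte selection, by -2.36 ± 0.25 and -2.31 ± 0.25; both were chosen for mention after their values were seen. The kinase Lck, named likewise, had log2 fold changes of -0.37 ± 0.11 (edgeR adjusted p = 0.0245) and -0.20 ± 0.11 (adjusted p = 0.207). In contrast the Tec-family kinase Txk rose from 64.9 to 568 CPM (3.13 ± 0.16) and from 96.8 to 625 CPM (2.69 ± 0.15), and its relative Tec rose in both (1.69 ± 0.22 and 1.74 ± 0.21). The adaptor Nck2 fell in both, from 9.75 to 0.566 CPM in the CD4 transfer (-4.01 ± 0.78) and to 1 read in CD8αα from CD8αβ against 160 in CD8αβ IEL, a ratio of 203 with a counting interval of 35.8 to 8051. With the Xist-positive libraries left out, 2 were higher and 6 lower in the CD4 transfer, and 3 higher and 7 lower in the CD8αβ transfer. Of all 13393 genes in that fit 4.9% were higher and 5.03% lower in the CD4 transfer, and 5.32% and 5.61% in the CD8αβ transfer, which is the background for this fit in the lists below too.

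Of 20 phosphatases, ubiquitin ligases and adaptors that restrain receptor signalling, 3 rose and 7 fell in the CD4 transfer (15% and 13.4% of all genes), and 6 rose and 6 fell in the CD8αβ transfer (16.1% and 15.1% of all genes), with medians of -0.11 and -0.02 log2. The 3 that rose in the CD4 transfer are at the background share. The UBASH3 pair moved in opposite directions in both transfers. Ubash3a, the T cell member, was at 274 CPM in CD4 IEL and 214 CPM in CD8αβ IEL and fell to 0.374 and 0.344 CPM (log2 -9.60 ± 0.41 and -9.21 ± 0.39). The low values rest on 0 to 5 reads per library in CD8αα from CD4 and 1 to 5 in CD8αα from CD8αβ, so the size of the fall is uncertain. Ubash3b, the more widely expressed member, instead rose from 65.5 to 170.2 CPM (1.38 ± 0.15) and from 104.5 to 181 CPM (0.79 ± 0.15). Sit1, a transmembrane adaptor that binds SHP-2, fell in both (log2 -7.12 ± 0.70 and -7.26 ± 0.69). Its libraries held 0 to 21 reads in CD8αα from CD4 and 6 to 12 in CD8αα from CD8αβ. Sla2, an adaptor that limits receptor levels, rose in both (1.12 ± 0.13 and 0.93 ± 0.12), and so did Dok1, an adaptor for RasGAP (1.02 ± 0.13 and 1.46 ± 0.13). Pag1, an adaptor for the inhibitory kinase Csk, had log2 fold changes of 0.19 ± 0.20 (edgeR adjusted p = 0.538) in the CD4 transfer and 1.49 ± 0.21 (adjusted p = 8.81e-05) in the CD8αβ transfer, and the test of that difference gave -1.30 ± 0.29 (adjusted p = 0.0291). Leaving those 4 libraries out gave 3 and 6 genes in each transfer, higher and lower.

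Of 17 tested genes of the route from Grb2 to ERK 3 rose and 3 fell in each comparison, near the shares of all genes (15% and 13.4% in the CD4 transfer, 16.1% and 15.1% in the CD8αβ transfer), with medians of 0.06 and 0.17 log2. Mapk3, which encodes ERK1, went from 18.6 to 45.7 CPM (log2 1.30 ± 0.22 SE) and from 28.1 to 61.1 CPM (1.11 ± 0.21). Gab3, a docking protein for SHP-2, fell (-1.35 ± 0.28 and -0.82 ± 0.28), while the kinase gene Map2k2 rose in the CD4 transfer (0.53 ± 0.16, edgeR adjusted p = 0.0245, against 0.29 ± 0.16, adjusted p = 0.207, in the other). Braf, another kinase gene, rose in the CD8αβ transfer (0.70 ± 0.24, edgeR adjusted p = 0.0359) and stood at -0.26 ± 0.23 (adjusted p = 0.452) in the CD4 transfer, and the difference between transfers was not called for either gene. When the Xist-positive libraries were left out, 1 gene was higher and 1 lower in the CD4 transfer, and 0 higher and 1 lower in the CD8αβ transfer.

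Among 19 tested inhibitory receptors whose tyrosine motifs are known to recruit SHP-1 or SHP-2, 5 rose and 6 fell in the CD4 transfer (15% and 13.4% of all genes), and 3 rose and 8 fell in the CD8αβ transfer (16.1% and 15.1% of all genes), with medians of -0.03 and -1.49 log2. The 3 that rose in the CD8αβ transfer are near the background share. The largest falls were those of Cd5, Pdcd1 and Slamf6, receptors found on T cells. Cd5 went from 694 to 3.40 CPM (log2 -7.71 ± 0.63 SE) and from 368 to 0.811 CPM (-8.77 ± 0.70), Pdcd1, encoding PD-1, went from 101 to 0.667 CPM (-7.29 ± 0.50) and from 377 to 0.926 CPM (-8.63 ± 0.47). Slamf6 fell in the CD8αβ transfer (-5.82 ± 0.80) and had 4 reads in CD8αα from CD4 against 1054 in CD4 IEL (ratio 235, counting interval 91.6 to 865). The largest rises were those of Cd244, Cd300a and Pecam1, which natural killer or myeloid cells also carry. Cd244 went from 145 to 1257 CPM (3.12 ± 0.28) and from 158 to 1225 CPM (2.96 ± 0.28), and Pecam1 from 96.7 to 540 CPM (2.48 ± 0.19) and from 25.3 to 645 CPM (4.67 ± 0.22). Cd300a went from 0.406 to 11.4 CPM in the CD4 transfer (4.72 ± 0.87) and did not pass the test in the CD8αβ transfer (1.88 ± 0.69, edgeR adjusted p = 0.0527). Klrc1, encoding NKG2A, was named after its values were seen, and its reads are uncertain because it has closely similar relatives. It rose in CD8αα from CD4 (1.12 ± 0.31) and fell in CD8αα from CD8αβ (-5.97 ± 0.37), and the test of that difference gave 7.09 ± 0.48 (edgeR adjusted p = 2.14e-06). In the fit that omits these libraries 4 rose and 4 fell in the CD4 transfer, and 3 rose and 6 fell in the CD8αβ transfer.

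**Figure D4:**
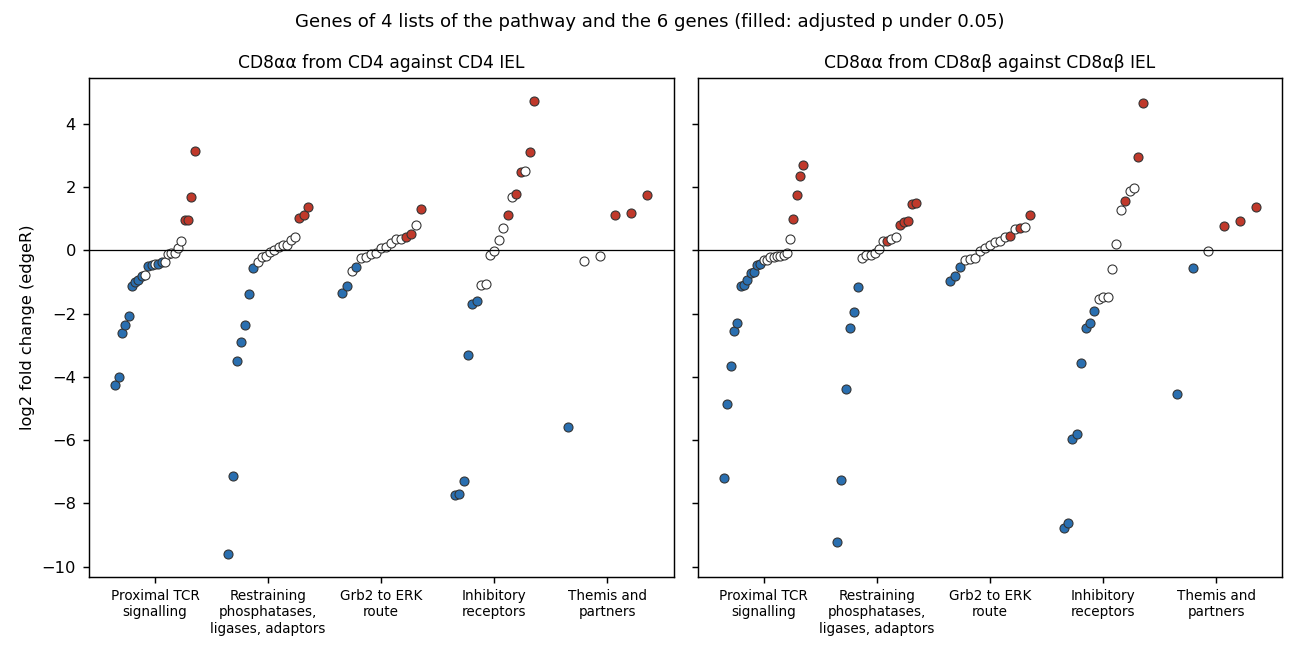
Log2 fold change (edgeR) of every tested gene of the 4 lists and of the 6 genes in both CD8αα comparisons, sorted within a list, filled where the adjusted p was under 0.05 (red higher, blue lower). Proximal receptor signalling has 13 and 12 genes called lower against 4 and 4 higher, while most genes of the Grb2 to ERK route are open and near 0.

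The genes whose pattern over the 12 libraries was most like that of Themis were Irf4 (Pearson r = 0.991 of log2 CPM), Cd28 (0.990), Inpp4b (0.989), Cd44 (0.987) and Tnf (0.986), among 5944 genes above the median level. Their levels fell with it, for example from 263 to 12.5 CPM for Irf4 and from 352 to 6.89 CPM for Cd44 between CD4 IEL and CD8αα from CD4. Themis2 was most like Gpr160 (0.974), Fam174b (0.972), Pik3ap1 (0.971), Slc16a10 (0.970) and Rbms1 (0.965). Fam174b stood at 6.17 CPM in CD4 IEL and 111 CPM in CD8αα from CD4, and Pik3ap1, an adaptor between receptors and PI3-kinase known from B cells, at 22.2 and 184.6 CPM. These correlations describe 12 libraries in 4 groups, in which the difference between groups makes up most of the variation, and libraries of a group share their treatment.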

How the data were processed

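The authors deposited 1 table of read counts per gene, whole numbers without normalisation, for 12 libraries. The aligner was HISAT2 2.1.0 and the genome mm10, per the submitters' processing notes. How reads were counted, with which annotation and with or without strand, is not given in the sources used here. Samples were grouped by their titles. Of 25965 rows, 66 repeated a symbol and were left out (0.0202% of reads). Themis2 was found by its Ensembl identifier under the older symbol BC013712. Hras, Pirb and Adgre1 were found likewise, and Lilrb4a was not matched.

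Genes were filtered with filterByExpr (minimum count 10, minimum total 15), scaled by TMM and tested by quasi-likelihood in edgeR 4.0.16 under R 4.3.3. A single model held all 12 libraries. Tests were two-sided, and p-values were adjusted over 12622 genes by the Benjamini-Hochberg method, with a threshold of 0.05. The procedure was tested on simulated data. The smallest chi-square per gene between replicates was 11.4, so no library repeated another of its own group within sampling noise. Libraries of different groups were not compared in this way. A count of 0 allows up to 3 counts, 0.271 to 0.534 CPM per library, and counting intervals are at the 95% level. Both cover counting error only. Levels per kilobase use the longest coding transcript of GENCODE M21, and promoters come from RefSeq (GRCm38.p6).

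The 6 genes and the lists were chosen with earlier results of these data known. From each list, the 2 genes called with the strongest rise and the 2 with the strongest fall in each CD8αα comparison were named, apart from a gene that is not reported here. For Themis and Themis2 the 5 genes of highest correlation among genes above the median level were named, without predicted genes, receptor segments or small RNAs. Alternatives were library totals, RLE factors, DESeq2 1.42.0, no filter, a replicate block, only the compared groups, and leaving out each library or the Xist-positive CD8αα libraries.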

Additional observations from a re-analysis of the deposited data

Results flagged for a closer look

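The difference in Themis2 between the CD8αα group and its companion group was not the same size in the transfers. Its log2 fold change over the companion group was larger in the CD4 transfer than in the CD8αβ transfer by 0.992728 ± 0.22 SE (edgeR adjusted p = 0.0277). The log2 fold changes themselves were 1.76 and 0.77. CD4 IEL held 36.7 ± 1.94 CPM and CD8αβ IEL 69.6 ± 8.52 CPM (SD, n = 3), against 124 ± 15.1 and 118 ± 16.1 CPM in the CD8αα groups. The call was lost in 7 of 18 alternative fits, and the adjusted p was 0.489 without the 4 Xist-positive CD8αα libraries.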

How the results depend on the processing

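No called result reversed its direction under any alternative that was run. The falls of Themis in both CD8αα groups, the rises of Themis2 and Ptpn6 in CD8αα from CD4 and the rise of Ptpn6 in CD8αα from CD8αβ passed the threshold in all 19 alternative fits. Leaving out the 4 Xist-positive CD8αα libraries changed the counts most. The genes called went from 3593 to 1330 for CD8αα from CD4 against CD4 IEL, from 3940 to 1465 for CD8αα from CD8αβ against CD8αβ IEL, from 546 to 1 between the CD8αα groups, from 5010 to 1674 for CD8αα from CD4 against CD8αβ IEL, from 4891 to 2527 for CD8αα from CD8αβ against CD4 IEL, and from 347 to 16 for the difference between transfers. That fit has 1 library in each CD8αα group. Of the 6 genes, the numbers called went from 5 to 2 in the CD8αβ transfer, from 1 to 0 between the CD8αα groups, from 4 to 1 and from 5 to 3 in the 2 crossed comparisons, and from 1 to 0 for the difference between transfers.

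Between the CD8αα groups 0 of the 6 genes were called with library totals, RLE factors, no filter or the replicate block, and 1 with DESeq2, which called 1032 genes; a fit of only these groups called 1002. Leaving out 1 library at a time gave 0 to 1 of the 6 genes and 170 to 746 genes. For the difference between transfers DESeq2 called 2 of the 6 genes and 806 genes, and leaving out 1 library gave 0 to 1 and 162 to 398. Library totals moved the median log2 fold change of all genes by 0.12 between the companion groups and by -0.17 between CD8αα from CD8αβ and CD4 IEL, and in the latter Vav1 was then called (log2 -0.30, adjusted p = 0.0322). The cause of these changes was not tested beyond what the smaller number of libraries sets.

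The replicate block gave 3660 and 3916 genes called for the CD8αα groups against their companions, 671 between the CD8αα groups and 384 for the difference between transfers, where it called 2 of the 6 genes (Themis and Themis2). Deviations of same-numbered libraries correlated at -0.02 to 0.06 in the CD4 transfer and 0.10 to 0.33 in the CD8αβ transfer. Every library of the CD8αβ transfer correlated best with its own number. The main model did not treat the numbers as pairs, because the labels do not say that a number marks a shared animal, litter or day.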
